A study of Mus musculus with 48 samples.

Results

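The 8 genes described here act in the activation of plasminogen and in the starting and braking of blood clotting: *Plat*, *Plau*, *Plaur*, *Serpine2*, *F3*, *Thbd*, *Procr* and *Vwf*. They were chosen by symbol from the 46983 genes counted in a mouse stroke experiment, and all 8 were among the 19970 genes tested, those whose total over the libraries exceeded 10 counts. The mice were 3-month-old C57Black/6 males. In permanent middle cerebral artery occlusion (MCAO) the artery was coagulated and transected, which leaves a small cortical infarct. Sham mice had the same surgery without coagulation, and controls gave intact cortex. The 48 libraries fell into 11 groups, namely 4 controls, and at each of 3 h, 12 h, 24 h, day 3 and day 7 a sham group of 4 and an MCAO group of 5, or 4 at 24 h. Mice were perfused before dissection, and the tissue taken held injured cortex together with unaffected tissue.

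Plasmin is the protease that dissolves fibrin. It is cut from plasminogen by tissue-type plasminogen activator (*Plat*), which vessels and neurons release, or by urokinase (*Plau*), which works bound to its receptor on the cell surface (*Plaur*). Protease nexin-1 (*Serpine2*) is a secreted serpin that blocks thrombin and both activators. Tissue factor (*F3*), abundant on astrocytes in brain, starts clotting when blood meets tissue. Thrombomodulin (*Thbd*) and the endothelial protein C receptor (*Procr*) turn thrombin to the activation of protein C, an anticoagulant. Von Willebrand factor (*Vwf*), stored in endothelial cells and platelets, tethers platelets to an injured vessel wall.

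The libraries held 1522668 to 2826735 counts on genes. Levels are given as CPM, the counts of a gene scaled to the library total after TMM normalization in edgeR. *Serpine2* was counted 305 to 922 times per library, *Vwf* 10 to 221 times, *Thbd* 5 to 93 times and *Plat* 3 to 54 times. The other 4 genes were sparse, with 3 counts or fewer in 16 of 48 libraries for *F3*, 32 for *Plau*, 33 for *Procr* and 35 for *Plaur*. Some libraries stood apart. Day 3 MCAO replicate A had the lowest microglia marker sum of its group, 593 CPM against a group median of 1444, and day 7 MCAO replicate C held 5484 CPM of fibroblast markers against 183 to 536 in the other 4. Choroid plexus markers summed to 502 CPM in control replicate A and to 0.571 to 3.37 in the other controls, and striatum markers spanned 190 to 4559 CPM over all libraries. Neuron markers summed to 22632 to 29736 CPM in the controls, inside the range of the shams, 16933 to 39665 CPM. In bulk tissue, fewer cells of a type and less RNA per cell cannot be told apart.

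*Vwf* rose on day 3 after MCAO, and *Plat* and *Plau* were called higher than sham on day 7. A call needed a change of more than 0.58 on the log2 scale in either direction and a Benjamini-Hochberg adjusted p below 0.01 from edgeR's quasi-likelihood test. On day 3, 1 of the 8 was called where 4.02% of all genes were, and on day 7, 2 of the 8 where 3.5% were. At 3 h, 12 h and 24 h edgeR called 0 of the 8, as did DESeq2, where edgeR called 0.11%, 0.411% and 0.0901% of all genes. At an unadjusted p under 0.05 edgeR had 2 of the 8 at 3 h (*Thbd* and *Procr*), 1 at 12 h (*Thbd*) and 1 at 24 h (*Procr*), and of all 19970 genes 1688, 2917 and 1757 passed that limit. None of the 8 was called lower. Their median log2 fold change was 1.05 at 3 h, 0.21 at 12 h, 0.65 at 24 h, 0.98 on day 3 and 1.73 on day 7, and the median over all genes lay between 0 and 0.06.

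**Figure D1:**
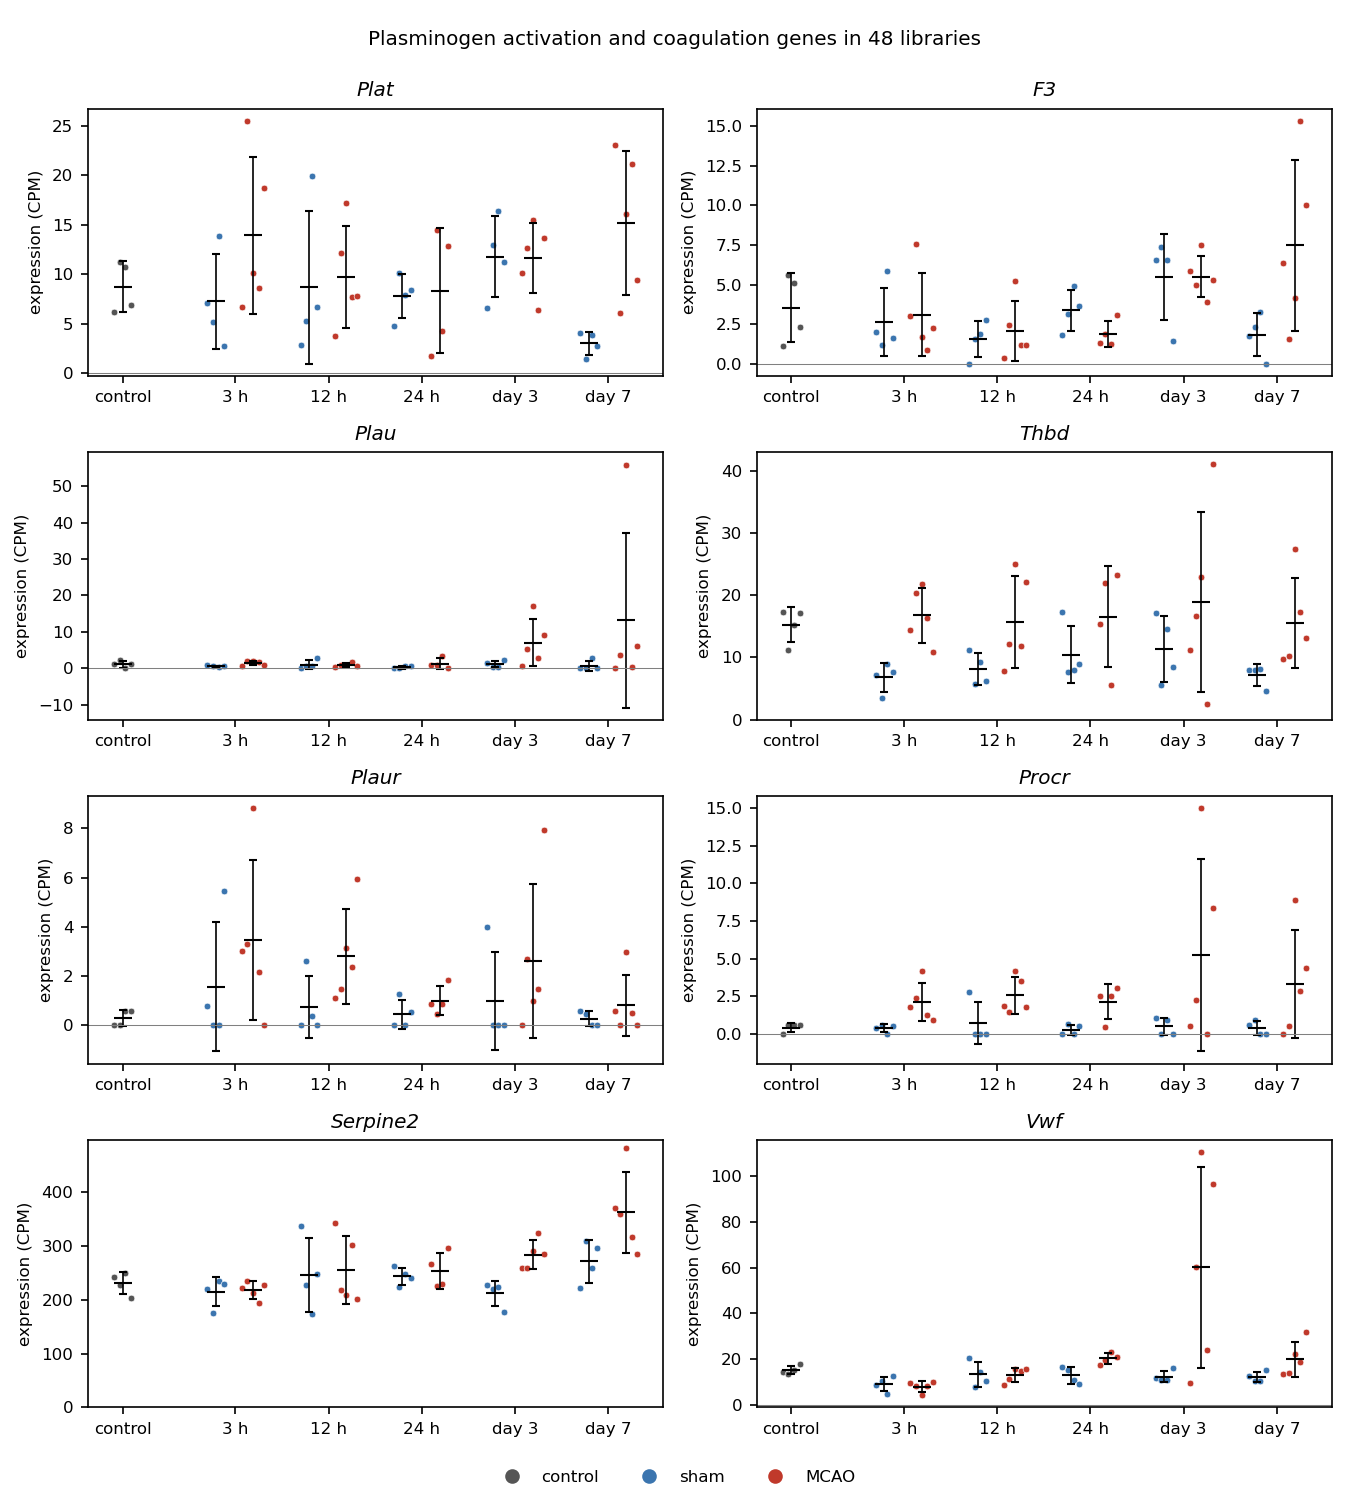
Expression in CPM (vertical axes) of the 8 genes in each of 48 libraries by time (horizontal axes), with controls in grey, shams in blue and MCAO in red. Points are libraries and bars the mean ± SD of 4 or 5 libraries; *Vwf* reached 110 CPM on day 3 and *Plau* 55.9 CPM in 1 library on day 7.

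**Figure D2:**
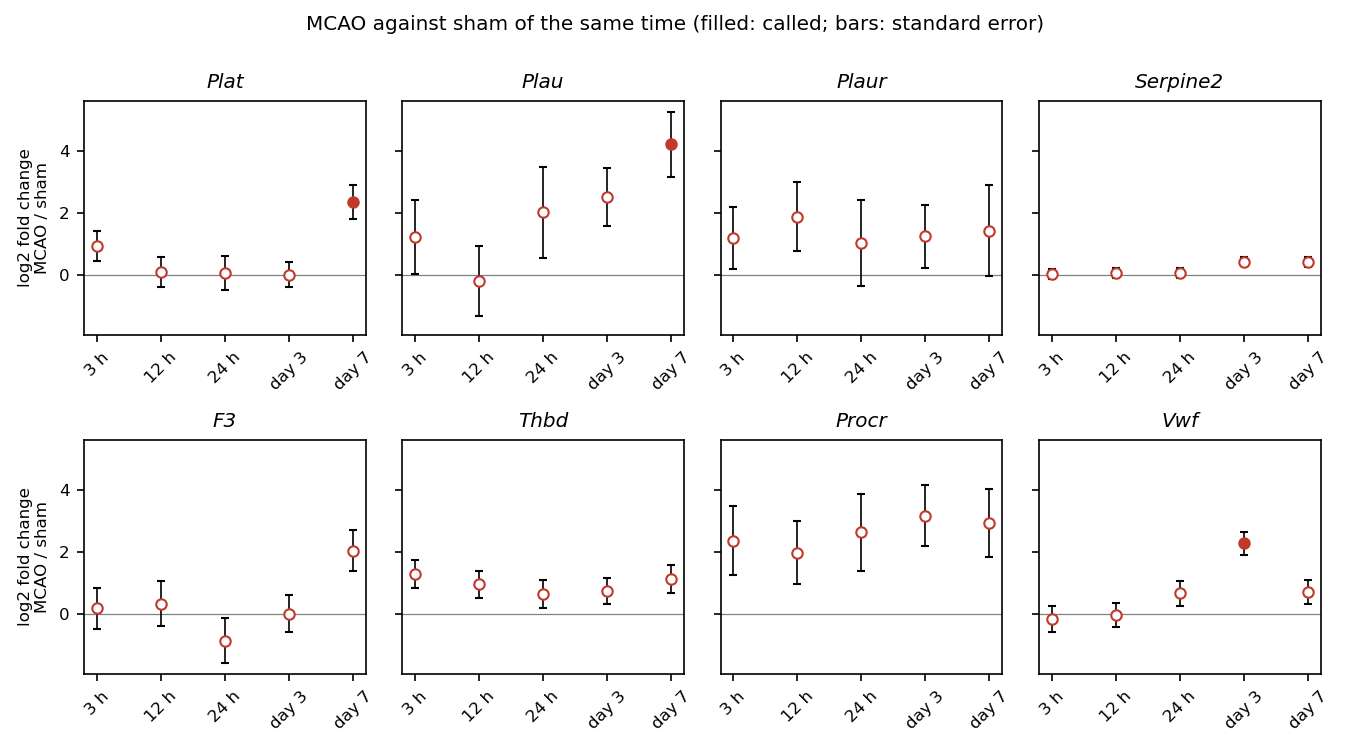
Log2 fold change of MCAO against the sham of the same time (vertical axes) for the 8 genes at the 5 times (horizontal axes). Bars are standard errors derived from edgeR's test. The filled points are the called values, *Vwf* at 2.28 on day 3 and *Plat* at 2.35 and *Plau* at 4.22 on day 7.

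*Plat* (ENSMUSG00000031538.5, chromosome 8, 22757727 to 22782844 of GRCm38, forward strand) codes for tissue-type plasminogen activator. On day 7 the MCAO libraries held 23.1, 6.11, 16.1, 21.1 and 9.39 CPM (replicates A to E). The shams of day 7 held 4.0, 1.4, 3.82 and 2.74 CPM (replicates A to D). All 5 MCAO libraries lay above all 4 shams, in a comparison where the groups of 10.5% of all genes did not overlap. *Plat* differed by 2.35 on the log2 scale (standard error 0.56, edgeR adjusted p = 0.00476). These shams were the lowest group of the series for *Plat*, and all 4 lay below the controls, which held 6.14, 11.2, 10.7 and 6.85 CPM, in a comparison where 5.02% of all genes had groups apart. Sham against control on day 7 was not called (log2 fold change -1.55, standard error 0.60, edgeR adjusted p = 0.578). Set against the controls, *Plat* on day 7 after MCAO had a log2 fold change of 0.79 and was not called (edgeR adjusted p = 0.478). The call was also lost without sham replicate A, B or D or MCAO replicate A, C or D, with log2 fold changes of 2.1021 to 2.51 and edgeR adjusted p of 0.0105 to 0.0277. At 3 h *Plat* was at 13.9 ± 7.96 CPM after MCAO (SD, n = 5) and 7.23 ± 4.79 in sham (SD, n = 4). That difference of 0.92 on the log2 scale was not called (standard error 0.49, edgeR adjusted p = 0.623). From 12 h to day 3 the log2 fold changes were 0.10, 0.06 and 0.00, with standard errors of 0.49, 0.54 and 0.40 and overlapping groups. The MCAO effect on day 7 exceeded that on day 3 by 2.35 on the log2 scale (standard error 0.73), which did not pass (edgeR adjusted p = 0.114). Beside the day 7 value, endothelial markers had 0 of 13 called and summed to 416 to 486 CPM after MCAO and 381 to 478 in sham. Neuron markers had 3 of 11 called lower and microglia markers 5 of 10 higher, and their part in the *Plat* value was not tested.

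*Plau* (ENSMUSG00000021822.2, chromosome 14, 20836660 to 20843385, forward strand) codes for urokinase. On day 7 the MCAO libraries held 0, 3.56, 55.9, 0.480 and 6.26 CPM, from 0, 7, 94, 1 and 10 counts. The shams of day 7 were at 0 in 3 libraries and at 2.73 CPM, or 5 counts, in replicate C. Of the MCAO libraries 3 lay above all shams, and most counts came from replicate C. The log2 fold change was 4.22 (standard error 1.05, edgeR adjusted p = 0.00692). Without MCAO replicate C it was 1.86 and was not called (edgeR adjusted p = 0.295). It was also not called without sham replicate A, B or D (edgeR adjusted p 0.0272 to 0.0436), against the controls (log2 fold change 3.47, edgeR adjusted p = 0.0323), or with only the libraries of day 7 in the fit (edgeR adjusted p = 0.0604). Without sham replicate C, which held all the sham counts, the fitted value was 7.74. Replicate C of day 7 MCAO also had the highest microglia sum of its group, 2552 CPM against 700 to 962, and the highest monocyte and macrophage sum, 47.0 CPM against 15.0 to 21.6. The part of these cells in the *Plau* value was not tested. On day 3 the MCAO libraries held 0.534, 5.42, 17.0, 2.93 and 9.25 CPM, and the shams 1.45, 0.462, 0.467 and 2.34 CPM. All but replicate A of MCAO lay above the shams, and the log2 fold change of 2.51 did not pass (standard error 0.94, edgeR adjusted p = 0.0937). No library of 3 h, 12 h or 24 h held more than 8 counts. At 24 h there were 12 counts after MCAO and 2 in sham, a ratio of 4.81 with an exact 95% interval of 1.07 to 44.3 that covers counting error only.

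*Plaur* (ENSMUSG00000046223.10, chromosome 7, 24462484 to 24475968, forward strand), the urokinase receptor, had its highest mean at 3 h after MCAO. The 3 h MCAO libraries held 3.01, 3.31, 8.81, 2.15 and 0 CPM, and the shams 0.791, 0, 0 and 5.45 CPM. The groups overlapped through sham replicate D, and only MCAO replicate C lay above it. The log2 fold change was 1.18 (standard error 0.99, edgeR adjusted p = 0.813), and it was 3.30 without sham replicate D. At 12 h the log2 fold change was 1.88 (standard error 1.11, edgeR adjusted p = 0.446), from 1.11 to 5.96 CPM after MCAO and 0 to 2.61 in sham. On day 3 it was 1.24 (standard error 1.02, edgeR adjusted p = 0.510), with 3.99 CPM in sham replicate A and 0 in the other 3 shams. At 24 h there were 8 counts after MCAO and 3 in sham (ratio 2.14, exact 95% interval 0.514 to 12.5), and on day 7 there were 7 and 2 (ratio 3.06, exact 95% interval 0.582 to 30.2). Against the controls the log2 fold changes of *Plaur* were 3.37 at 3 h, 3.02 at 12 h and 2.99 on day 3, and none was called (edgeR adjusted p 0.349, 0.240 and 0.178).

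*Serpine2* (ENSMUSG00000026249.10, chromosome 1, 79794197 to 79861180, reverse strand), protease nexin-1, had the most counts of the 8 and small differences. On day 3 the MCAO libraries held 259, 259, 291, 324 and 286 CPM. The shams of day 3 held 227, 219, 225 and 178 CPM. The groups did not overlap, as for 7.14% of all genes on day 3. The log2 fold change of 0.42 missed the threshold in size and in p (standard error 0.16, edgeR adjusted p = 0.0872), and with spike-in scaling it was 0.17. On day 7 the MCAO libraries held 371, 359, 481, 316 and 285 CPM, and the shams 221, 309, 259 and 297 CPM. Of these, 4 of 5 MCAO libraries lay above all shams, with a log2 fold change of 0.42 (standard error 0.16, edgeR adjusted p = 0.0826). Against the controls, at 203 to 249 CPM, *Serpine2* on day 7 was called at 0.65 (edgeR adjusted p = 0.00891). At 3 h, 12 h and 24 h its log2 fold changes were 0.02, 0.05 and 0.06 (standard errors 0.155, 0.155 and 0.164), and scaling to the spike-in RNAs turned the first 2 negative. Astrocyte markers summed to 3857 to 5384 CPM after MCAO and 5253 to 5490 in sham on day 3, with 1 of 9 called higher. Microglia markers had 7 of 10 called higher on day 3 and 5 of 10 on day 7. The part of either cell type in the *Serpine2* values was not tested.

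*F3* (ENSMUSG00000028128.13, chromosome 3, 121723537 to 121735048, forward strand), tissue factor, had its highest mean on day 7 after MCAO. The day 7 MCAO libraries held 6.35, 1.53, 4.16, 15.4 and 10.02 CPM. The shams of day 7 held 1.72, 2.33, 3.27 and 0 CPM. All but MCAO replicate B lay above the shams. Its log2 fold change of 2.03 was not called (standard error 0.66, edgeR adjusted p = 0.0422), and against the controls, at 1.12 to 5.62 CPM, it was 1.08 (edgeR adjusted p = 0.422). On day 3 *F3* held 5.51 ± 1.32 CPM after MCAO (SD, n = 5) and 5.46 ± 2.74 in sham (SD, n = 4), a log2 fold change of 0.00 with a standard error of 0.59. At 24 h it was -0.88 (standard error 0.73, edgeR adjusted p = 0.770), with 1.27 to 3.06 CPM after MCAO and 1.78 to 4.88 in sham. At 3 h and 12 h it was 0.17 and 0.32 (standard errors 0.65 and 0.73), and both turned negative against the controls, at -0.21 and -0.77. Astrocyte markers had 2 of 9 called higher on day 7 and summed to 3963 to 5834 CPM after MCAO and 4772 to 6045 in sham.

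*Thbd* (ENSMUSG00000074743.4, chromosome 2, 148404466 to 148408188, reverse strand), thrombomodulin, was above all shams in every MCAO library at 3 h and again on day 7, without a call. At 3 h the MCAO libraries held 14.5, 20.3, 21.8, 16.4 and 10.9 CPM. The shams of 3 h held 7.12, 3.45, 8.96 and 7.63 CPM. The groups of 3.58% of all genes did not overlap at 3 h. The log2 fold change was 1.28 (standard error 0.45, edgeR adjusted p = 0.326). On day 7 the MCAO libraries held 9.81, 10.2, 27.4, 17.3 and 13.2 CPM, and the shams 8.01, 7.93, 8.18 and 4.56 CPM. These groups were also apart, as for 10.5% of all genes on day 7, at a log2 fold change of 1.12 (standard error 0.46, edgeR adjusted p = 0.120). The controls held 17.3, 11.2, 15.2 and 17.1 CPM, above every sham of 3 h and day 7. Against the controls the log2 fold change of *Thbd* was 0.14 at 3 h (edgeR adjusted p = 0.977) and 0.03 on day 7 (edgeR adjusted p = 0.997). At 12 h, 24 h and day 3 the log2 fold changes over sham were 0.95, 0.64 and 0.72 (standard errors 0.44, 0.46 and 0.42). The day 3 MCAO libraries of *Thbd* spread from 2.44 to 41.0 CPM, and those of sham from 5.54 to 17.0.

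*Procr* (ENSMUSG00000027611.12, chromosome 2, 155751117 to 155755471, forward strand), the endothelial protein C receptor, had at most 5 counts in any control or sham library. At 3 h the MCAO libraries held 1.81, 2.36, 4.20, 1.29 and 0.911 CPM. The shams of 3 h held 0.395, 0.576, 0 and 0.545 CPM, from 0 or 1 count each, so the groups did not overlap. At 3 h the groups of 3.58% of all genes were apart. The 3 h counts were 23 and 3, a ratio of 5.98 (exact 95% interval 1.81 to 31.1, counting error only), and *Procr* was not called (edgeR adjusted p = 0.562). At 24 h the counts were 18 and 2 (ratio 7.22, exact 95% interval 1.73 to 64.2), and on day 7 they were 29 and 3 (ratio 8.45, exact 95% interval 2.62 to 43.3). On day 3 the MCAO libraries held 0.534, 2.26, 15.0, 0 and 8.37 CPM, and the shams 1.09, 0, 0.934 and 0 CPM. Replicates B, C and E of MCAO lay above the shams, and replicates A and D among them. The log2 fold change of 3.16 was not called (standard error 0.99, edgeR adjusted p = 0.0342). At 12 h it was 1.97 (standard error 1.03, edgeR adjusted p = 0.368), with 1 sham, replicate A, holding all 5 sham counts. Replicates C and E of day 3, with the most *Procr*, also had the highest endothelial marker sums, at 929 and 898 CPM.

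The promoters of *Plaur*, *F3* and *Procr* are shown because each holds TGANTCA, where N is any base. With C or G at N these are the letters recognised by AP-1, the Fos and Jun transcription factor, and the first match in *F3*, with A at N, fits only the wider motif. The motif was chosen after the values had been seen. RefSeq promoters of GRCm38.p6, 250 bases before to 50 after the gene start, were found for 4 of the 8 genes, and the motif reads the same on both strands. It was present in 7.81% of all 32851 promoters and in 3 of these 4. The first match lay 69 bases before the RefSeq start of *Plaur*, 146 before that of *F3*, which held 2, and 154 before that of *Procr*. For *Procr* the RefSeq start lies downstream of the gene start given above, so the match is nearer to the latter. *Serpine2* had none in its window, 79858616 to 79858915 of chromosome 1. That window lies inside the gene span given above and not at its reverse-strand start. The 60 bases shown are on the forward strand at chr7:24462387-24462446, chr3:121723370-121723429 and chr2:155751036-155751095, with the motif in capitals.
Plaur: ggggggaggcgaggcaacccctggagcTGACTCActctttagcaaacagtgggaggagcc
F3: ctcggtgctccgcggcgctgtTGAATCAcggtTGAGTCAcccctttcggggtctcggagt
Procr: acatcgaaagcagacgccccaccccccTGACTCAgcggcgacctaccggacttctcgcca
None of the 3 genes was called at any time, and their means were highest at 3 h for *Plaur*, on day 7 for *F3* and on day 3 for *Procr*.

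*Vwf* (ENSMUSG00000001930.17, chromosome 6, 125546774 to 125686679, forward strand), von Willebrand factor, rose 4.87-fold on day 3. The day 3 MCAO libraries held 9.61, 60.1, 110.4, 23.9 and 96.5 CPM. The shams of day 3 held 11.6, 11.1, 10.7 and 15.9 CPM. MCAO replicate A lay below every sham and the other 4 above them all. In the fit the log2 fold change was 2.28 (standard error 0.37, edgeR adjusted p = 2.82e-05). *Vwf* was called on day 3 under all 17 alternatives, at 1.94 to 2.56 with each library left out in turn and at 1.98 against the controls (edgeR adjusted p = 3.08e-04). At 24 h the MCAO libraries held 17.4, 19.6, 23.3 and 20.8 CPM, and the shams 16.6, 15.2, 10.98 and 8.91 CPM. The 24 h groups did not overlap, as for 5.83% of all genes at 24 h, and the log2 fold change of 0.65 was not called (standard error 0.40, edgeR adjusted p = 0.656). At 12 h, where 3.29% of all genes and none of the 8 had groups apart, it was -0.04, and at 3 h it was -0.18 (standard errors 0.39 and 0.42). On day 7 the MCAO libraries held 13.3, 13.7, 22.0, 18.7 and 31.9 CPM, and the shams 12.6, 10.3, 10.4 and 15.1 CPM. Of these, 3 of 5 lay above all shams, at a log2 fold change of 0.71 (standard error 0.39, edgeR adjusted p = 0.260). The MCAO effect on day 3 was above that of 24 h by 1.63 (standard error 0.55, edgeR adjusted p = 0.387), and that of day 7 differed from day 3 by -1.57 (standard error 0.53, edgeR adjusted p = 0.139), so neither step passed.

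Some endothelial markers rose with *Vwf* on day 3. The 13 markers summed to 398, 637, 929, 536 and 898 CPM in MCAO replicates A to E and to 422 to 445 CPM in the shams. *Pecam1*, *Cdh5* and *Esam*, genes of endothelial cell junctions, were called higher, 3 of the 13, and the median log2 fold change of the 13 was 1.00. *Cldn5*, *Kdr*, *Tek*, *Tie1* and *Emcn* were at 0.62 to 1.52 and were not called. *Flt1*, *Ly6c1*, *Abcb1a* and *Itm2a* were at 0.20 to 0.33 and *Slco1a4* at -0.21, also without a call. As a share of that sum, *Vwf* made up 2.42%, 9.43%, 11.9%, 4.47% and 10.8% after MCAO and 2.54% to 3.58% in sham, so that 4 of 5 MCAO libraries stood above the shams in this ratio as well. At 24 h the endothelial sums overlapped, at 364 to 452 and 352 to 451 CPM, and the *Vwf* share was 4.15% to 6.13% after MCAO and 2.53% to 3.71% in sham. Platelets also carry *Vwf*. Of 8 platelet markers 5 could be tested, and 1, *Pf4*, a chemokine also known from brain border macrophages, was called on day 3 (log2 fold change 3.96, edgeR adjusted p = 6.78e-05). The platelet sum was 18.2 to 138.8 CPM after MCAO and 2.77 to 13.4 in sham. Most of it after MCAO was *Pf4*, at 11.7 to 134 CPM, against 0.923 to 6.89 in sham. *Itga2b* and *Treml1* were not called (log2 fold change 0.44 and 0.98, edgeR adjusted p 0.668 and 0.662). They had 40 and 7 counts after MCAO and 27 and 3 in sham. *Gp6*, *Clec1b* and *Tubb1* had 0 counts in both day 3 groups, and *Gp9* and *Ppbp* had 2 and 8 counts over the 5 MCAO libraries. The part of platelets in the *Vwf* value was not tested.

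**Figure D3:**
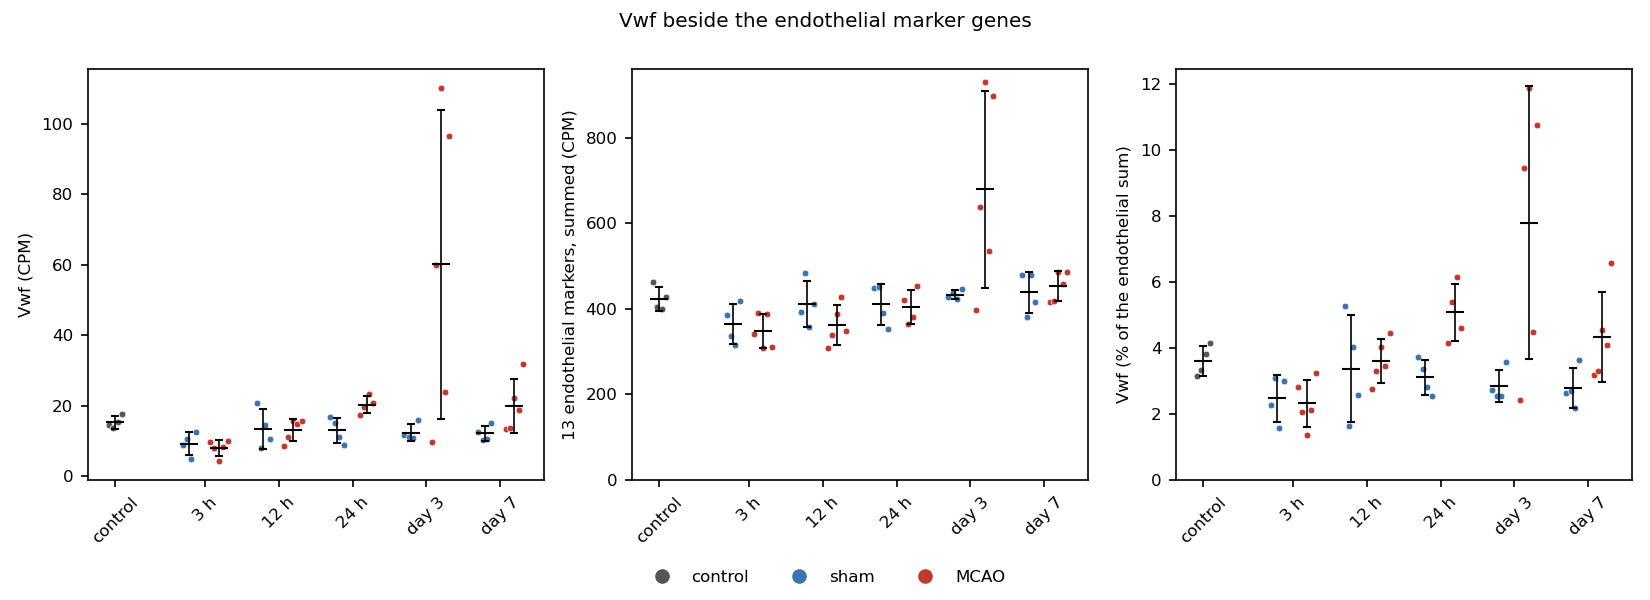
*Vwf* in CPM, the sum of 13 endothelial markers in CPM, and *Vwf* as a percentage of that sum (vertical axes) in each library by time (horizontal axes), with controls in grey, shams in blue and MCAO in red. Points are libraries and bars the mean ± SD; on day 3, 4 of 5 MCAO libraries lie above all shams in each of the 3 panels.

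Surgery alone gave no call among the 8. Sham against control called 0 of 8 at each of the 5 times with edgeR and with DESeq2, where edgeR called 0%, 0.0351%, 0.01%, 0% and 0% of all genes. At an unadjusted p under 0.05 edgeR had *Thbd* at 3 h (log2 fold change -1.14) and *Plat* and *Thbd* on day 7 (-1.55 and -1.09), and none of the 8 at the other 3 times. Over all genes, 736 passed that unadjusted limit at 3 h, 731 on day 3 and 1604 on day 7, and DESeq2 called 0, 1 and 0. In 5 cases all 4 shams lay below all controls, *Thbd* at 3 h, 12 h and day 7, *Vwf* at 3 h and *Plat* on day 7. Sham and control did not overlap, in either direction, for 3% of all genes at 3 h, 2.9% at 12 h, 4.27% at 24 h, 3.3% on day 3 and 5.02% on day 7. The MCAO effect was then compared between neighbouring times. Again 0 of 8 were called by edgeR or DESeq2, where edgeR called 0.01%, 0.01%, 0.01% and 0% of all genes. At an unadjusted p under 0.05 edgeR had none of the 8 in the first 2 steps, *Vwf* from 24 h to day 3, and *Plat*, *F3* and *Vwf* from day 3 to day 7. Of all genes 1762 passed the unadjusted limit from 24 h to day 3, and 3231 in the last step, where DESeq2 called 57. With the 11 groups of each gene put in order of their means, none of the 10 pairs of neighbours had separate ranges, for any of the 8.

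Of 53 other genes of plasminogen activation and clotting, 34 were tested, and edgeR called 0 at 3 h, 1 higher at 12 h and at 24 h, 7 higher and 1 lower on day 3, and 3 higher on day 7. Over all genes, edgeR called 0.11%, 0.411%, 0.0901%, 4.02% and 3.5% at these times, and the median log2 fold change lay between 0 and 0.06. Among the 34 the median log2 fold change was 0.14, 0.34, 0.42, 1.08 and 0.77 at the 5 times. With genes that had no counts in a group set at their bound, it was 0.07, 0.37, 0.50, 1.01 and 0.92. By role, day 3 called higher 1 of 5 plasminogen-binding genes, 1 of 10 coagulation factors, 1 of 6 anticoagulants, 0 of 2 thrombin receptors and 2 of 6 partners of von Willebrand factor. Plasminogen itself (*Plg*), the substrate of both activators, had 2 counts in all 48 libraries and was not tested.

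Among the inhibitors, *A2m*, a broad protease trap, was called at 12 h, 24 h, day 3 and day 7, with log2 fold changes of 5.32, 3.89, 5.44 and 4.43. At 12 h it had 110 counts after MCAO and 2 in sham, a ratio of 49.1 (exact 95% interval 13.3 to 411, counting error only). Its 24 h call (edgeR adjusted p = 0.00985) was lost in 9 of 16 alternatives, among them without any 1 library except MCAO replicate C. *Serpini1*, or neuroserpin, a neuronal inhibitor of tissue-type plasminogen activator, fell on day 3 by 0.88 on the log2 scale (standard error 0.18, edgeR adjusted p = 5.33e-04). It held 114, 102, 62.4, 73.2 and 64.3 CPM after MCAO and 172, 162, 137 and 141 CPM in sham, with no overlap. The groups of 7.14% of all genes were apart on day 3. At 24 h *Serpini1* also lay below every sham, at 73.3 to 129 CPM against 133 to 176, without a call. The groups of 5.83% of all genes were apart at that time. On day 7 it overlapped sham, at 88.6 to 182 CPM against 129 to 139. Neuron markers had 1 of 11 called lower on day 3 and summed to 18810 to 23952 CPM after MCAO and 21660 to 29888 in sham, and their part in the *Serpini1* value was not tested.

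Of the genes that bind plasminogen or clear its activators, *Anxa2*, a surface assembly site for tissue-type plasminogen activator, rose on day 3 from 11.7 to 20.6 CPM in sham to 24.6 to 205 CPM after MCAO (log2 fold change 2.88, standard error 0.43, edgeR adjusted p = 8.31e-06). At 24 h *Anxa2* was also above all shams, at 32.3 to 93.5 CPM against 14.6 to 23.8, without a call. The groups of 5.83% of all genes were apart at 24 h. *Plgrkt*, a plasminogen receptor, was called on day 7 at 1.45 (standard error 0.37, edgeR adjusted p = 0.00882). That call was lost in 8 of 17 alternatives, among them without sham replicate A, B or D or MCAO replicate A or C (edgeR adjusted p 0.0180 to 0.0673). *Lrp1*, which takes up activator and inhibitor complexes, was called on day 7 at 0.69 (standard error 0.16, edgeR adjusted p = 0.00466), and at 0.42 without MCAO replicate C it was not. Nor was *Lrp1* called without sham replicate B or D (edgeR adjusted p 0.0370 and 0.0204). In all, its call was lost in 6 of 17 alternatives. Like that of *Plat*, the day 7 calls of *Plgrkt* and *Lrp1* were lost against the controls. *Pros1*, or protein S, the cofactor of activated protein C, rose on day 3 to 13.9 to 84.4 CPM, all above the shams at 7.98 to 13.1 (log2 fold change 2.28, standard error 0.40, edgeR adjusted p = 9.64e-05). It was already above all shams at 12 h, at 13.5 to 34.9 CPM against 2.79 to 10.5. The same held at 24 h, at 21.6 to 45.8 CPM against 6.95 to 17.3, and neither time was called. At 12 h the groups of 3.29% of all genes were apart. *F13a1*, the factor XIII subunit that crosslinks fibrin, was called on day 3 at 2.77 (standard error 0.66, edgeR adjusted p = 0.00408). This call was lost in 8 of 17 alternatives, among them without any 1 sham or MCAO replicate C or E (edgeR adjusted p 0.0122 to 0.0280). *Tfpi*, which blocks the tissue factor complex, was not called, at 1.09 on day 3 and 1.05 on day 7 (standard errors 0.46 and 0.47).

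Among the partners of von Willebrand factor, *Selp*, which codes for P-selectin and shares its endothelial storage granule, was called on day 3. The MCAO libraries held 0.534, 4.07, 43.9, 6.35 and 19.4 CPM, and all 4 shams were at 0. Against a floor of 3 counts over the sham group, *Selp* was at least 45.7-fold higher (edgeR adjusted p = 3.15e-04). The controls held 0, 0, 3.95 and 6.28 CPM, and against them the call was lost (edgeR adjusted p = 0.0802). At 12 h *Selp* had 53 counts after MCAO and 0 in sham, and at 24 h 30 and 1, without a call at either time. *Thbs1*, thrombospondin-1, rose on day 3 (log2 fold change 6.02, standard error 1.13, edgeR adjusted p = 2.32e-04), with 1.07, 9.94, 94.9, 9.28 and 82.4 CPM after MCAO and 0 to 1.87 in sham. *Vwf*, *Procr*, *Selp* and *Thbs1* all had their highest day 3 values in MCAO replicates C and E. So, among the MCAO libraries, did *Plat* (15.5 and 13.7 CPM), *Plau* (17.0 and 9.25) and *Thbd* (23.0 and 41.0). Over all genes, 802 were called on day 3, 433 without replicate C and 476 without replicate E.

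**Figure D4:**
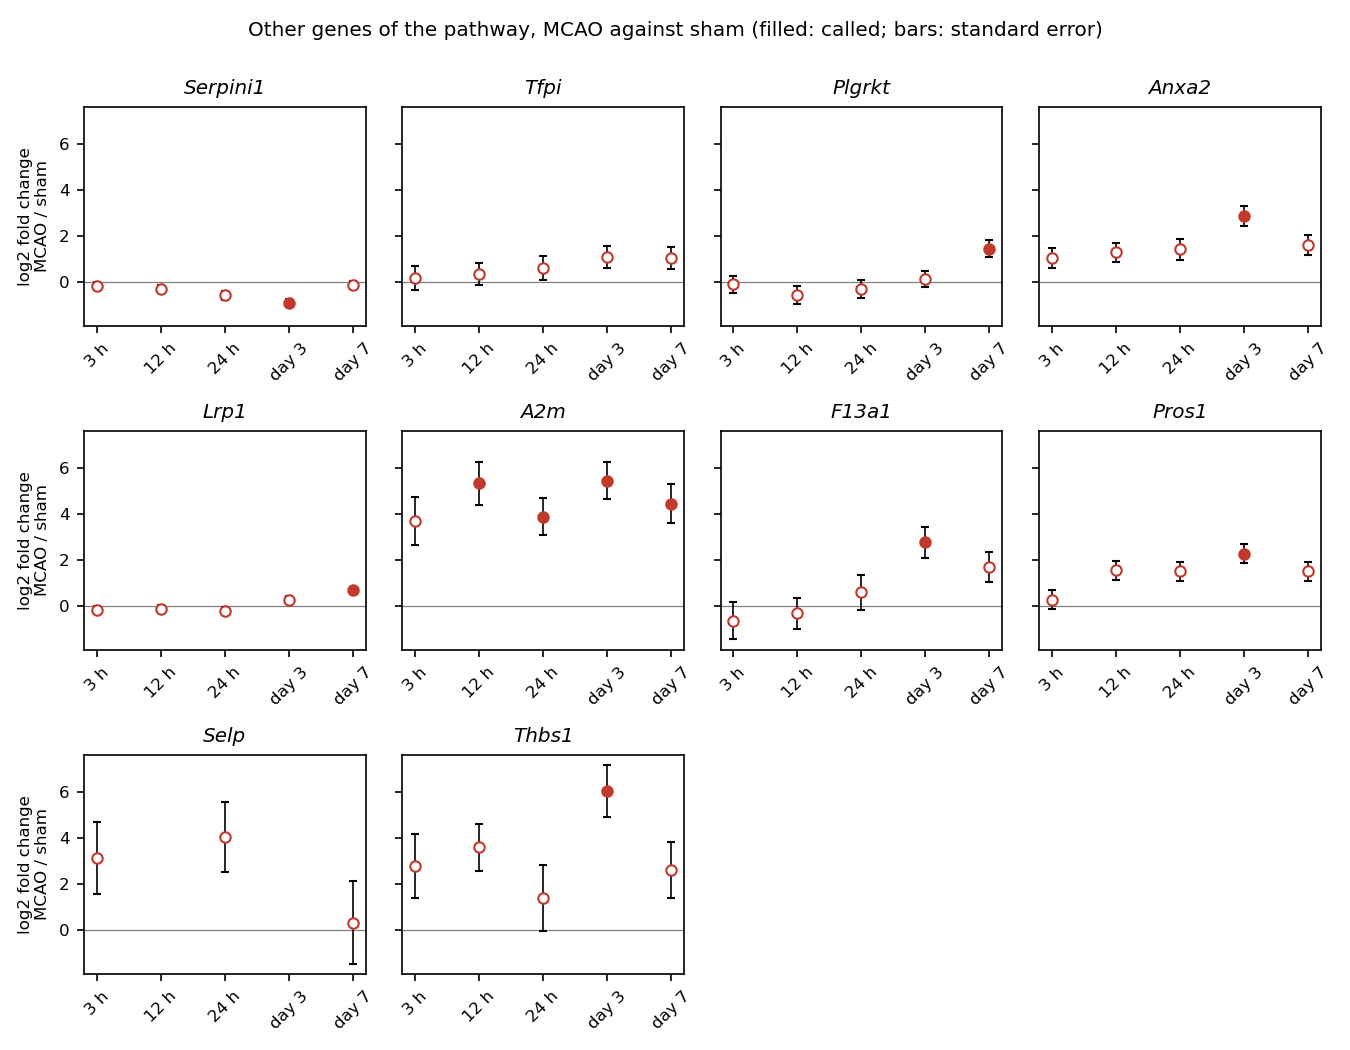
Log2 fold change of MCAO against the sham of the same time (vertical axes) at the 5 times (horizontal axes) for 10 other genes of the pathway. Bars are standard errors derived from edgeR's test. Filled points are called, and *Selp* is not drawn at 12 h and day 3, when its shams were at 0. *A2m* is called at 4 times, and *Serpini1* on day 3 is the point called lower.

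The 1 or 2 genes most like each of the 8 in log2(CPM + 1) over the 48 libraries, among genes with a mean of at least 10 CPM, are given as a description, since the points share groups and libraries. For *Plat* they were *Slc20a2* and *Pdgfb* (Pearson r 0.82 and 0.81), for *Plau* *Ctsb* (0.83), and for *Vwf* *Fcrls* and *Rack1* (0.81 and 0.81). For *Serpine2* they were *Vkorc1* and *Cx3cr1* (0.77 and 0.76), for *F3* *Gja1* and *Tsc22d4* (0.76 and 0.75), and for *Procr* *Cd93* and *Col4a1* (0.77 and 0.77). *Thbd* and *Plaur* had looser neighbours, *Mgp* and *Ckap4* (0.70 and 0.69) and *Akap12* and *Ctla2a* (0.66 and 0.65).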

How the data were processed

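RNA from 48 libraries was prepared with a QuantSeq 3′ kit with spike-in RNAs. The authors trimmed the reads, removed mitochondrial and ribosomal sequence, aligned the rest and deposited raw counts per gene, not normalized. Their processing notes name STAR 2.5.2b, HTSeq and DESeq, and the genome was GRCm38. The 5 summary lines and 92 spike-ins were kept out of library sizes. Genes with more than 10 counts in all were fitted together over the 11 groups with edgeR 4.0.16 (TMM, quasi-likelihood, dispersion as a biological coefficient of variation of 24.9%) in R 4.3.3, for 14 comparisons. Standard errors are not an output of that test and were derived, as the absolute log2 fold change over the square root of its F statistic. Replicates are separate mice per the study's text, though the labels give only letters. The fit was tested on simulated data of 19676 genes for MCAO against sham on day 3. It called 50% of genes changed by 1 on the log2 scale, 74.2% at 1.5 and 95.5% at 2. The changed genes were picked only among those with a mean of at least 10 counts per library. *Plau*, *Plaur*, *F3* and *Procr* lay below that mean. Recovery was not tested for genes as sparse as these, so the shares cannot be read as theirs. Of 82 pairs of libraries within groups 0 were identical. Alternatives were DESeq2 1.42.0, DESeq2 size factors, spike-in scaling, other filters, the control as reference, the compared groups alone, a replicate block and each library left out. Named pathway genes were those called in a comparison of MCAO with sham with a mean of at least 2 CPM, with *Plg*, *Serpini1* and *Tfpi* whatever their values, and some genes that the rules for named genes picked are not reported here. The 8 genes and the lists were chosen with earlier results of these data known. Intervals and floors cover counting error only.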

Additional observations from a re-analysis of the deposited data

Results flagged for a closer look

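In 13 of the 88 groups of 4 or 5 libraries of the 8 genes, 1 library stood far from the others of its group (Dixon's test at 95%). Chance gives about 1 group in 20 for normally spread values. A group at 0 in all but 1 library is flagged whatever that library holds, so the 13 cannot be set against that rate. Of the 13, 9 rest on 16 counts or fewer. *Plau* was at 55.923 CPM in day 7 MCAO replicate C against 0 to 6.263 in the other 4, and at 2.726 CPM in day 7 sham replicate C against 0. *Plaur* was high in 3 h sham replicate D (5.451 CPM against 0 to 0.791), 12 h sham replicate B (2.607 against 0 to 0.37), day 3 sham replicate A (3.989 against 0) and day 7 MCAO replicate C (2.975 against 0 to 0.577). Day 3 sham replicate D was low for *Serpine2* (178.019 CPM against 219.283 to 226.656) and *F3* (1.405 against 6.528 to 7.386), and high for *Vwf* (15.928 against 10.744 to 11.605). *Thbd* was high in 24 h sham replicate A (17.221 CPM against 7.585 to 8.914) and low in day 7 sham replicate D (4.562 against 7.933 to 8.177). *Procr* was at 0 in control replicate A against 0.562 to 0.571 CPM, and at 2.793 CPM in 12 h sham replicate A against 0.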

How the results depend on the processing

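For the 8 genes, 40 comparisons of MCAO with sham were recomputed under 667 alternatives, of which 607 kept the direction and the side of the threshold, 13 lost a call, 1 gained one (*Serpine2* on day 7 against the controls) and 46, in 12 comparisons, turned the direction of a difference that was not called. On day 7, 2 of the 8 were called, and with the controls as reference 1 was, *Serpine2*, with neither *Plat* nor *Plau*. With only the groups compared 1 was called, *Plat*, and with a library left out 0 to 2. *Procr* had no value under the filterByExpr filter. For the other pathway genes called, 187 of 220 alternatives kept the call and 33 lost it. The cause of these shifts was not tested.

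Directions turned as follows, on the log2 scale. With spike-in scaling they were -0.0665 for *Serpine2* at 3 h and -0.0408 at 12 h, -0.0352 for *Plat* at 12 h and -0.2668 on day 3, and -0.26 for *F3* on day 3. Against the controls they were -0.0807 for *Serpine2* and -0.2077 for *F3* at 3 h, -0.7724 for *F3* at 12 h and -0.1081 for *Plat* at 24 h. On day 3, *Plat* and *F3* were at -0.0273 and -0.0226 without a filter and at -0.0075 and -0.0047 with only the groups compared. With each library left out, *Serpine2* ranged from -0.0664 to 0.0642 at 3 h, -0.0875 to 0.2387 at 12 h and -0.0338 to 0.1144 at 24 h. *F3* ranged from -0.4927 to 0.8862 at 3 h, -0.3493 to 0.7238 at 12 h and -0.3239 to 0.1727 on day 3. *Plat* ranged from -0.2108 to 0.937 at 12 h, -0.3969 to 0.4126 at 24 h and -0.209 to 0.2018 on day 3. *Vwf* ranged from -0.3934 to 0.0046 at 3 h and -0.2109 to 0.227 at 12 h, and *Plau* from -0.5524 to 0.9078 at 12 h.

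Over all genes, 22, 82, 18, 802 and 698 were called at 3 h, 12 h, 24 h, day 3 and day 7. At 3 h there were 14 with spike-in scaling, 58 without a filter, 85 with only the groups compared and 58 with DESeq2. At 12 h there were 171 without a filter, 171 against the controls, 29 with only the groups compared and 179 with DESeq2. At 24 h there were 39, 55, 56, 111 and 44 with spike-in scaling, no filter, the controls, only the groups compared and DESeq2. Day 3 had 528 with only the groups compared, and day 7 had 300 against the controls and 1096 with DESeq2. With a library left out the counts were 5 to 20, 21 to 102, 6 to 21, 433 to 1350 and 241 to 678. The lowest day 3 count came without MCAO replicate C and the highest without replicate A.

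Spike-in scaling moved the median of all genes to -0.22 on day 3 and to 0.14 at 24 h and on day 7, and the share of calls that were higher to 64.3% at 3 h (81.8% before), 77.9% on day 3 (93.5%) and 82.4% on day 7 (59.2%). Against the controls it was 45.03% at 12 h (84.1%), 42.9% at 24 h (88.9%) and 72.3% on day 7 (59.2%). Replicate letters were not treated as pairs in the main fit. Between MCAO and sham libraries of the same letter and time, 8 of 20 correlations of deviations were over 0.1 (range -0.308 to 0.174). Libraries of unlike letters were not correlated, so these values cannot show whether the letters pair the libraries. With a replicate block 53 genes were called at 12 h, and *Vwf* on day 3 (2.05) and *Plat* (2.42) and *Plau* (3.82) on day 7 stayed called.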
